A study of Mus musculus with 36 samples.

Results

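Interleukins and interleukin receptors were taken as the protein-coding mouse genes whose symbol starts with Il and a digit. The GENCODE M21 annotation of GRCm38 held 82 such genes. Of these, 46 were among the 16690 genes of the count table of eWAT (epididymal white adipose tissue, a visceral fat depot of the male) and 32 were among the 14052 genes of the liver table. Both tables held 30 of them, Il1a and Il22ra1 were in the liver table only, and 16 were in the eWAT table only. The other 34, among them Il6, Il10, Il12b, Il13, Il17a and Il11ra2, were not analysed here. The tables keep genes with more than 0.5 CPM (counts scaled to the same library total) in at least 6 of the 18 libraries of a tissue, so a gene high in 1 diet group alone could enter, and counts over the members that entered describe those members only.

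The RNA came from liver and eWAT of wild-type C57BL/6 males of the founder (F0) generation, aged 24 weeks. All groups ate chow until 6 weeks of age. The HF mice then had 18 weeks of high-fat diet. The HFLF mice had 9 weeks of high-fat and then 9 weeks of low-fat diet, and the LF mice had 18 weeks of low-fat diet. Each diet and tissue had 6 libraries. Whether the 6 libraries of a group are 6 separate mice is not stated in the labels, so p-values measure the spread between libraries, which may be technical in part.

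Library totals ran from 8941798 to 31186477 counts in eWAT and from 11662551 to 23295485 counts in liver. Adipoq, an adipocyte gene, was at 806 to 3913 CPM in the eWAT libraries, and Alb, the hepatocyte albumin gene, was at 52940 to 76945 CPM in the liver libraries. In eWAT, Alb was at 2.62 to 101 CPM on HF, 10.1 to 145 CPM on HFLF and 25.5 to 690 CPM on LF. In eWAT a list of 10 epithelial and epididymal genes, of which 5 were measured, summed to 212 to 483 CPM in LF libraries 3, 4 and 5 and to 111 CPM in HFLF library 4, against 4.88 to 34.2 CPM in the other 14 libraries. Results in eWAT that changed without 6 libraries (LF 3 to 5, HF 1, HFLF 4 and HFLF 6), which had the highest sums of their diets, are marked below. In liver, LF libraries 1 to 4 stood apart: a list of 20 acute-phase genes summed to 43891 to 67772 CPM in them, against 27267 and 22172 CPM in LF libraries 5 and 6.

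Interleukins are secreted proteins that carry signals between immune cells and from immune cells to tissue cells. The IL-1 family signals through receptors that recruit MyD88 and NF-kB, and it is held in check by a receptor antagonist and by decoy receptors. Most other families use paired receptor chains and JAK kinases with STAT factors. Among these are the common gamma chain cytokines, the IL-6 family with the shared chain gp130, and the IL-10 family. In obese fat, macrophages are a known source and target of these signals, and in liver IL-1 and IL-6 drive the acute-phase response.

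Promoter windows are shown for the members with the largest called changes between HF and LF in eWAT, of which Il1rn, Il7r, Il13ra2 and Il1r2 rose and Il17rb fell. Il10ra belongs to this set by its change and is named only. The sequences are RefSeq windows of GRCm38.p6, written 5′ to 3′ on the gene's strand, each 300 bases long and ending shortly after an annotated start. RefSeq windows were held for 65 of the 82 members. Besides the downstream Il1rn window, those of Il7r and Il1r2 lie inside the GENCODE genes, past their outermost starts (chr15:9530176 and chr1:40074079). The bases after the RefSeq start of Il7r were not found in its GENCODE transcripts. Capitals mark matches, on either strand, to TGANTCA (AP-1), TTGCNNAA (C/EBP), TTCNNNGAA (STAT) or a form of the NF-kB site.
Il1rn, upstream start, chr2:24336610-24336909, plus strand: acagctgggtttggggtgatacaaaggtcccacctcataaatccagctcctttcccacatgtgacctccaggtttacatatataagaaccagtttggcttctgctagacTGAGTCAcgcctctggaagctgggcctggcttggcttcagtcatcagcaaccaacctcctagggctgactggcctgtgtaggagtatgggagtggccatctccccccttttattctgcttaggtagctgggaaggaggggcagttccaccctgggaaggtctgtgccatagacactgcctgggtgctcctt
Il1rn, downstream start, chr2:24345121-24345420, plus strand: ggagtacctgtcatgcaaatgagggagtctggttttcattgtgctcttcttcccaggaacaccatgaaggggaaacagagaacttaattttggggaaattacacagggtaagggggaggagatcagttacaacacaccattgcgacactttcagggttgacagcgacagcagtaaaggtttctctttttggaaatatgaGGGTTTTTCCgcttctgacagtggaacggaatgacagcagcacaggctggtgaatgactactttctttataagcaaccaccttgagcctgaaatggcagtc
Il7r, chr15:9529827-9530126, minus strand: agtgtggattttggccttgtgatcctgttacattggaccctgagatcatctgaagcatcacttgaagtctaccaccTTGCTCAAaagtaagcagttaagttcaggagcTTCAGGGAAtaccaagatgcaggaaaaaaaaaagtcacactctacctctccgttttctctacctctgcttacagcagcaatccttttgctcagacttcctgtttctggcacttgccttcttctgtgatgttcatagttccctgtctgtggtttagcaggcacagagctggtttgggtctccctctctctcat
Il13ra2, chrX:147429143-147429442, minus strand: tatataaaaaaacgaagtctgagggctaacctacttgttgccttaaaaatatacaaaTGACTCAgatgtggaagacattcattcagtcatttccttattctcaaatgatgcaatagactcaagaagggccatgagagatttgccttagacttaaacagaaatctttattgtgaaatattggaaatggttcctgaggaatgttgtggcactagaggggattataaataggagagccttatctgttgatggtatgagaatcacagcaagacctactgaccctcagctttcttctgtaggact
Il1r2, chr1:40085843-40086142, plus strand: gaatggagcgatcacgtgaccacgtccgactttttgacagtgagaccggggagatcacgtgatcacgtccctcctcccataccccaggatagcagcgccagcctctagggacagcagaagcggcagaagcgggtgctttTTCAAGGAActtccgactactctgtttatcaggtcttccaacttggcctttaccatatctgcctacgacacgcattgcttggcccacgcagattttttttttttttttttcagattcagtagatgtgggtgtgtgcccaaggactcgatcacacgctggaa
Il17rb, chr14:30008847-30009146, minus strand: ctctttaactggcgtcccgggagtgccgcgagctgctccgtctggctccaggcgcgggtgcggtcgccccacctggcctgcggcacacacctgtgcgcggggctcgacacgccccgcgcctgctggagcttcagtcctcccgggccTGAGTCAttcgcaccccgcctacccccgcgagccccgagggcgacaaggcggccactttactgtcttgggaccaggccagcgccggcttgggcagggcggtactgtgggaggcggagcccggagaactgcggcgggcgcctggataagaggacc
Il1rn had a window at each of 3 starts, and 1 of them, which shares most of its bases with the downstream window shown, is left out. The AP-1 letters were in the upstream Il1rn, the Il13ra2 and the Il17rb windows, at positions -141, -193 and -104 from the start, and 7.81% of all 32851 windows held them. The NF-kB letters were at position -51 of the downstream Il1rn window, and 1.63% of all windows held them. The STAT letters were at position -142 of Il7r and -111 of Il1r2 (8.3% of all windows), and the C/EBP letters at position -174 of Il7r (10.8%). GAGGAAGT, a PU.1 form that was searched too, had no match in these windows and was in 3.2% of all. No matches overlapped. These matches describe letters in the windows and do not show binding, and genes that rose and a gene that fell shared the AP-1 letters.

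Levels on the LF diet differed between the tissues for most members. On a scale per length (CPM per kb of exon, mean ± SD, n = 6), the highest members in eWAT were Il34, a ligand of the macrophage receptor CSF1R, at 22.7 ± 9.04 and Il6st, the gp130 chain, at 22.5 ± 2.32. Il17rc, a subunit of the IL-17 receptor, followed at 18.0 ± 1.87. Il34 and Il6st lay within their spread of each other, while Il6st and Il17rc differed by more than the sum of their SDs. In liver the highest were Il1r1, the signalling IL-1 receptor, at 33.1 ± 20.9 and Il6st at 17.6 ± 2.72. Il17rc at 12.9 ± 0.459, Il1rap, the IL-1 receptor accessory chain, at 12.5 ± 2.95 and Il6ra, the IL-6 binding chain, at 12.2 ± 2.71 followed, within their spread of each other. Liver Il1r1 spanned 11.1 to 59.5, and it was lowest in LF libraries 5 and 6.

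**Figure D1:**
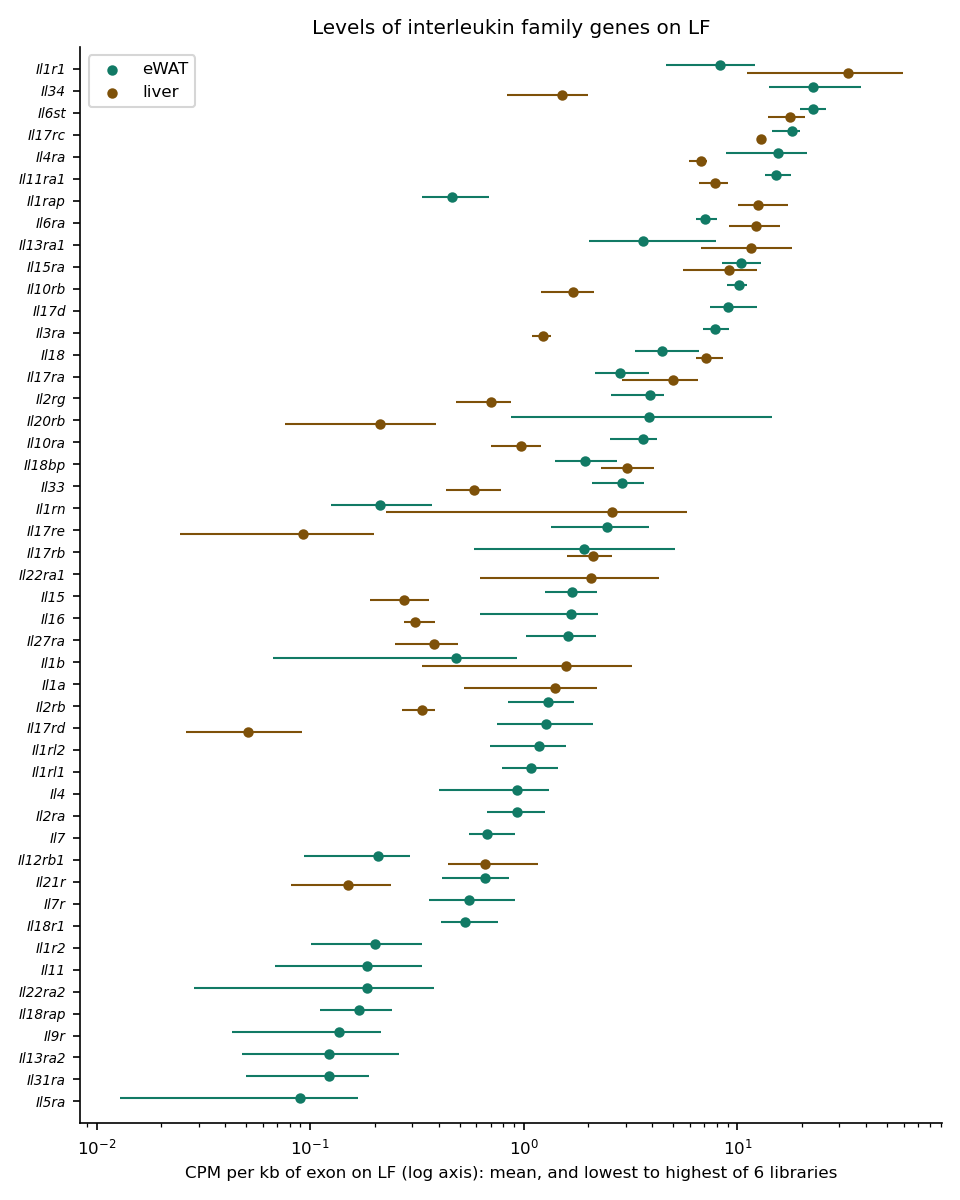
Levels of the members on LF in CPM per kb of exon on a log axis, with the mean as a point and a line spanning the lowest to the highest of 6 libraries, for eWAT (green, upper) and liver (brown, lower). The highest means were those of liver Il1r1 (33.1) and of eWAT Il34 (22.7) and Il6st (22.5).

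Between eWAT and liver on LF, 29 of the 30 shared members were called by edgeR's quasi-likelihood test at an adjusted p under 0.05 over all genes, 15 higher and 14 lower in eWAT, where 78.7% of all 13206 shared genes were called (40.4% higher, 38.3% lower). Here and below, changes are log2 fold changes ± SE. Il1rap was at 3.81 to 7.78 CPM in eWAT, against 115 to 195 CPM in liver (-5.54 ± 0.22, adjusted p = 6.62e-21). Il34 was at 27.6 to 74.6 CPM in eWAT, against 1.64 to 3.92 CPM in liver (3.11 ± 0.23, adjusted p = 3.83e-14). Neither gene overlapped between the tissues.

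The other members with the smallest p that were higher in eWAT were Il17re, a receptor for IL-17C (3.97 ± 0.43), Il17rd, a regulator of IL-17 receptor signalling (3.85 ± 0.27), Il3ra, the IL-3 receptor alpha chain (1.90 ± 0.16), Il15, a cytokine of NK and memory T cells (1.84 ± 0.22), Il10rb, a shared IL-10 family chain (1.8 ± 0.17), and Il2rg, the common gamma chain (1.71 ± 0.19). Those lower in eWAT were Il13ra1, the signalling IL-13 receptor (-2.49 ± 0.28), Il17ra, the shared IL-17 receptor chain (-1.60 ± 0.16), Il18, an inflammasome-processed cytokine (-1.46 ± 0.15), and Il18bp, its soluble inhibitor (-1.42 ± 0.16). The median over the members was 0.30 (0.02 over all shared genes), and it was 0.49 with upper-quartile factors, which moved the median of all genes to 0.21 and split the calls over all genes 6216 higher and 4089 lower, against 5339 and 5054. Without liver LF libraries 1 to 4, where 69.5% of all genes were called, Il1rn, the IL-1 receptor antagonist, no longer passed (-0.94, against -4.45 ± 0.68 with them), nor did Il1b (-1.08, against -2.55 ± 0.57), Il6st, Il17rb, Il17rc or Il21r. Without the 6 eWAT libraries 28 members were called, where 74.5% of all genes were.

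The comparison of HF with LF in eWAT asked what the high-fat diet did to this gene family in fat. Il1rn rose 5.07 on the log2 scale, and Il7r, Il13ra2, Il10ra and Il1r2 rose by 1.92 to 4.59. Il17rb, Il31ra, Il17re, Il15ra, Il34 and Il17rc fell. In all, 20 of the 46 members (43.5%) were called, 14 higher and 6 lower, where 40.8% of all genes were called (20.6% higher, 20.2% lower), so the share called lay near that of all genes. The median over the members was 0.14 (-0.02 over all genes).

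In the IL-1 family, 1 of 5 ligands and binding proteins and 3 of 7 receptors were called, all higher. Over all genes 40.8% were called, 20.6% higher. Il1rn was at 9.92, 26.3 and 109 CPM on HF (lowest, median and highest of 6), against 0.694, 0.852 and 2.06 CPM on LF (5.07 ± 0.64, adjusted p = 4.41e-05). All HF libraries were above all LF libraries, and HF library 3 was highest. Il1r2, which encodes a decoy receptor that binds IL-1 without signalling, was at 0.756, 1.67 and 1.96 CPM on HF, against 0.192, 0.351 and 0.640 CPM on LF (1.92 ± 0.36, adjusted p = 0.000611). The groups did not overlap, at counts as low as 4 in a library. The LF median lay under the 0.5 CPM of the table filter, and HF alone could bring Il1r2 in, which favours a rise on HF.

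Il1rl1, the IL-33 receptor ST2, was at 9.26, 13.6 and 21.4 CPM on HF, against 5.48, 7.53 and 10.01 CPM on LF, where the groups overlapped (0.91 ± 0.21, adjusted p = 0.00234). Without the 6 libraries named above it did not pass (0.74, adjusted p = 0.0621). Il18rap, the IL-18 receptor accessory chain, rose by less (0.82 ± 0.29, adjusted p = 0.0325), and did not pass without any 1 of LF libraries 3, 4, 5 and 6 or HF libraries 1, 2 and 3 (0.65 to 0.83). Without the 6 libraries it was 0.48 (adjusted p = 0.309). The agonist Il1b was at 0.151, 0.600 and 1.28 CPM on HF, against 0.128, 1.00 and 1.78 CPM on LF (-0.53 ± 0.72, adjusted p = 0.59). The signalling receptor Il1r1 was at 26.7, 42.1 and 50.1 CPM on HF, against 29.6, 48.9 and 76.6 CPM on LF (-0.41 ± 0.19, adjusted p = 0.0976). Neither passed, and both groups overlapped for each. Il33, an alarmin and the ligand of ST2, reached 21.5 and 21.6 CPM in HF libraries 3 and 4 and was at 4.79 to 13.4 CPM in the other 4, against 6.04 to 10.6 CPM on LF (0.54 ± 0.33, adjusted p = 0.206).

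**Figure D2:**
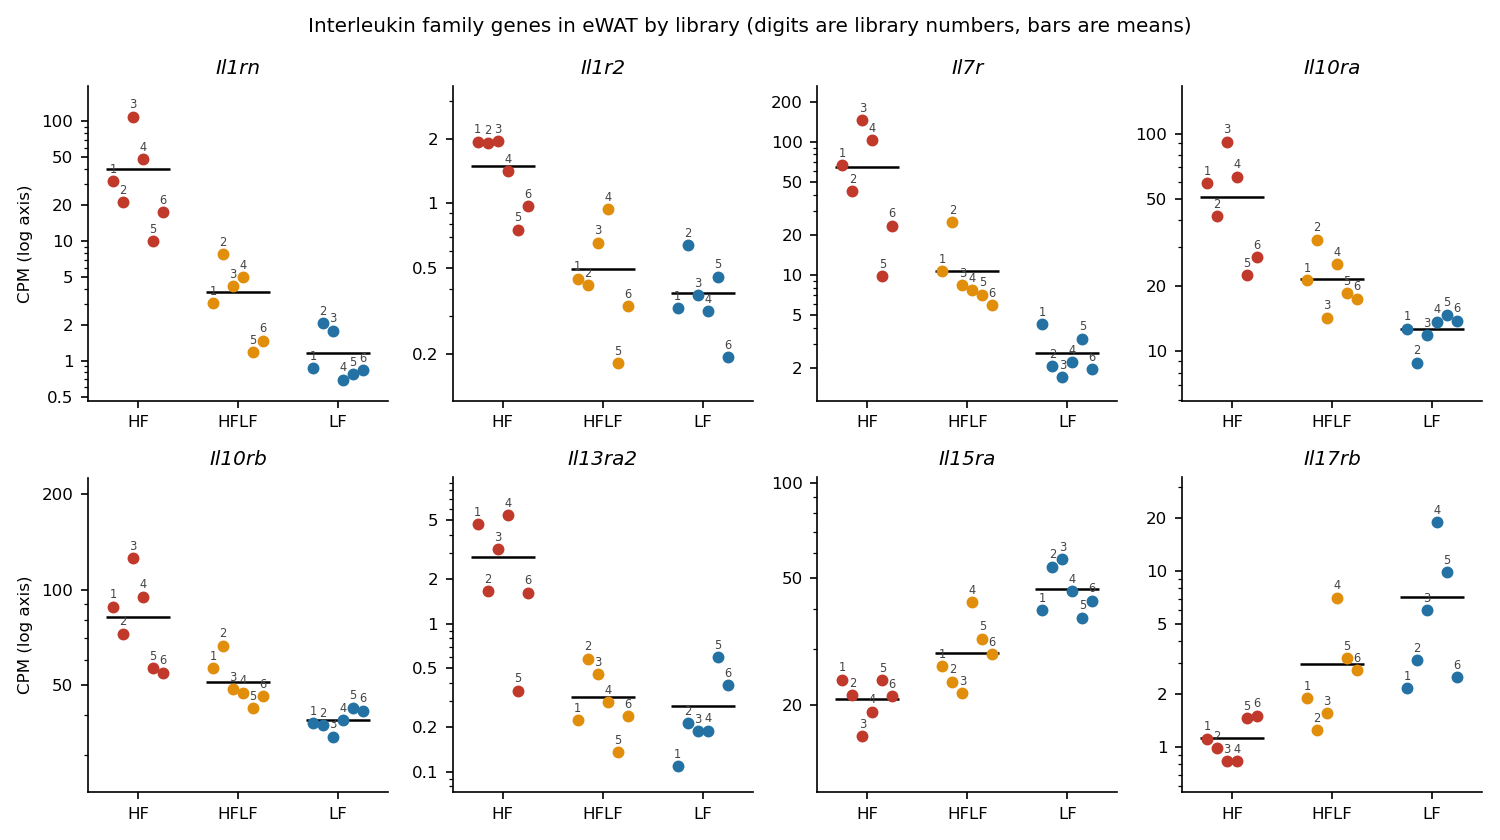
CPM of 8 members in eWAT on log axes, 1 point per library with its number, and the mean of 6 libraries as a bar, for HF (red), HFLF (orange) and LF (blue). Il1rn was at 9.92 to 109 CPM on HF and at 0.694 to 2.06 CPM on LF, and Il15ra and Il17rb ran the other way.

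Among the common gamma chain cytokines and the receptors that use this chain or share ligands with it, 5 of 13 genes were higher and 1 was lower. Over all genes 20.6% were higher and 20.2% lower. The 13 hold 3 ligands (Il4, Il7 and Il15) and 10 receptor genes, and 4 of the 10 were higher. Il7r, the receptor chain for IL-7 and, with CRLF2, for TSLP, was at 9.72, 54.4 and 145 CPM on HF, against 1.69, 2.13 and 4.25 CPM on LF (4.59 ± 0.59, adjusted p = 4.8e-05). The groups did not overlap, and HF libraries 5 and 6 were the lowest on HF. Il13ra2, a decoy receptor for IL-13, was at 0.353, 2.43 and 5.41 CPM on HF, against 0.109, 0.201 and 0.595 CPM on LF (3.21 ± 0.55, adjusted p = 0.000299). HF library 5 lay within the LF range, and counts ran down to 2 in a library. The LF and HFLF medians lay under the 0.5 CPM of the table filter, so the entry of Il13ra2 rested largely on HF.

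Il2rg was at 14.5, 18.5 and 25.3 CPM on HF, against 6.12, 9.69 and 10.9 CPM on LF (1.01 ± 0.19, adjusted p = 0.000722). Il9r, the IL-9 receptor, rose (1.36 ± 0.43, adjusted p = 0.0188), and its call was lost without HF library 2 (0.98), which was highest at 3.89 CPM, and without the 6 libraries (1.33, adjusted p = 0.0889). The ligand Il15 and its receptor Il15ra went opposite ways. Il15 was at 6.49, 7.53 and 10.6 CPM on HF, against 2.84, 3.76 and 4.96 CPM on LF (1.02 ± 0.17, adjusted p = 0.000284). Il15ra, which presents IL-15 to neighbouring cells, was at 15.98, 21.4 and 24.0 CPM on HF, against 37.6, 44.1 and 57.6 CPM on LF (-1.17 ± 0.16, adjusted p = 6.27e-05). Neither overlapped between the groups. Il4ra, shared by the IL-4 and IL-13 receptors, was at 75.2 to 102 CPM on HF, against 53.3 to 127 CPM on LF (-0.17 ± 0.18).

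In the IL-10 family, Il10ra, the ligand-binding IL-10 receptor chain, was at 22.3, 50.5 and 91.8 CPM on HF, against 8.89, 13.2 and 14.7 CPM on LF (1.97 ± 0.28, adjusted p = 8.71e-05). Its partner Il10rb was at 54.5, 80.4 and 126 CPM on HF, against 34.2, 38.2 and 42.3 CPM on LF (1.05 ± 0.17, adjusted p = 0.000164). Every HF library was above every LF library for both chains. Il27ra, which pairs with gp130 to bind IL-27, rose (1.49 ± 0.26), as did Il3ra (1.05 ± 0.18) and Il16, a CD4-binding cytokine (0.78 ± 0.24), and Il16 did not pass without the 6 libraries (0.82, adjusted p = 0.0614). Exons of Il16 share 15.3% of their bases with Stard5 on the other strand, and the strand setting of the counting was not known. Exons of Il10rb and Il2rg share 14.9% and 30.5% of their bases with Gm21970 and Gm20489 on the same strand. Gm21970 and Gm20489 were in neither count table, and how reads in shared bases were counted was not known. The chains Il6st (0.06 ± 0.08) and Il6ra (0.20 ± 0.13) did not pass.

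In the IL-17 family, 3 of 6 genes were lower and 0 were higher, where 20.2% of all genes were lower and 20.6% higher. The 6 are 5 receptor genes and the ligand Il17d (0.01 ± 0.20), and the receptors Il17ra (0.12 ± 0.14) and Il17rd (-0.03 ± 0.20) did not pass. Il17rb, a receptor for IL-25, was at 0.833, 1.06 and 1.52 CPM on HF, against 2.18, 4.56 and 18.9 CPM on LF, with no overlap (-2.59 ± 0.51, adjusted p = 0.000808). The highest values were in LF libraries 4, 5 and 3 (18.9, 9.88 and 5.99 CPM), the libraries with the highest epithelial sums, and without the 6 libraries the change was -1.30 (adjusted p = 0.015). Il17re fell (-1.25 ± 0.40, adjusted p = 0.0184) and missed the threshold without the 6 libraries (-1.07, adjusted p = 0.0502). Il17rc fell (-0.50 ± 0.18, adjusted p = 0.0329) but did not pass without any 1 of LF libraries 1, 2 and 3 or HF libraries 1, 3 and 4 (-0.46 to -0.41), nor without the 6 libraries (-0.55, adjusted p = 0.061).

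Il34 was at 20.9, 24.9 and 38.2 CPM on HF, against 27.6, 39.4 and 74.6 CPM on LF (-0.67 ± 0.19, adjusted p = 0.0116), and at -0.18 (adjusted p = 0.493) without the 6 libraries. Il31ra, the IL-31 receptor, was called at counts down to 0 (-1.31 ± 0.51, adjusted p = 0.0479) and lost its call in 13 of the 18 fits without 1 library (-1.34 to -1.15) and without the 6 libraries (-1.16, adjusted p = 0.155). Il31ra lay near the 0.5 CPM of the table filter. Its entry could thus rest in part on LF libraries, which would favour a fall on HF. Without the 6 libraries, 14 members were called, where 31.2% of all genes were. Il20rb, a receptor chain for IL-20, and Il13ra1 were among them (1.03 and 0.91, adjusted p = 0.00777 and 0.016), though they did not pass with all libraries (-0.75 ± 0.57 and 0.22 ± 0.29). Il20rb was at 61.1 CPM in LF library 4 and 18.4 CPM in LF library 5, against 3.65 to 5.43 CPM in the other 4 LF libraries. The part of epithelial RNA in these results was not tested.

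Among lists of immune cell markers, that of macrophages was higher in every HF library than in every LF library. The other immune lists overlapped between HF and LF. The list of progenitor and fibroblast genes, not an immune list, was higher in every HF library than in every LF and HFLF library. A list of 15 macrophage genes, all measured, summed to 1539, 4920 and 11560 CPM on HF (lowest, median and highest), 1129, 1435 and 3432 CPM on HFLF, and 740 to 1082 CPM on LF. HF libraries 5 and 6, with the lowest sums on HF (1539 and 2008 CPM), were also the lowest on HF for Il1rn, Il7r, Il10ra and Il10rb. A list of 15 T and NK cell genes, all measured, summed to 17.1 to 45.1 CPM on HF, 14.3 to 43.3 CPM on HFLF and 11.7 to 17.6 CPM on LF. The neutrophil list, with 4 of 8 genes measured, summed to 9.57 to 32.7 CPM on HF and 6.03 to 19.2 CPM on LF. A list of mast cell and innate lymphoid genes, with 8 of 9 measured, summed to 47.1 to 269 CPM on HF and 51.8 to 124 CPM on LF. A list of 8 dendritic cell genes, all measured, summed to 55.8 to 80.4 CPM on HF and 51.2 to 57.1 CPM on LF. A list of 9 progenitor and fibroblast genes, all measured, summed to 3667 to 12407 CPM on HF, 2559 to 3656 CPM on HFLF and 2512 to 3497 CPM on LF. In bulk tissue, more cells of a type and more RNA per cell cannot be told apart.

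Set against the macrophage sum of the same library, the members differed among themselves. Il1rn stood at 0.508% to 0.946% of the macrophage sum on HF, 0.0846% to 0.338% on HFLF and 0.0731% to 0.279% on LF. Il7r stood at 0.632% to 1.32% on HF, 0.508% to 0.722% on HFLF and 0.196% to 0.392% on LF. For both, every HF library was above every LF library. Il10ra stood at 0.794% to 1.45% on HF, 0.947% to 1.71% on HFLF and 1.18% to 1.61% on LF, and Il1r2 at 0.0169% to 0.0528% on HF, 0.0121% to 0.0635% on HFLF and 0.021% to 0.0865% on LF, where the diets overlapped. Among the members called higher on HF, the median ratio was higher on HF than on LF for Il1rn, Il7r and Il13ra2 only. It was nearly the same for Il1r2 (0.0399% on HF, 0.0401% on LF). For the others it was lower on HF, as for Il10rb (1.71% against 4.25%), Il3ra (1.16% against 2.52%) and Il15 (0.155% against 0.405%). These ratios are a description, and the part of cell numbers in the changes was not tested.

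The comparison of HFLF with HF in eWAT set 9 weeks of high-fat and then 9 weeks of low-fat diet against 18 weeks of high-fat diet. No group was sampled at the end of the 9 weeks of high-fat diet. The shorter high-fat feeding and the return to low fat thus cannot be told apart. This comparison shares the HF libraries with the comparison above, so the values stand side by side and are not independent. Of the 46 members 12 were called, 3 higher and 9 lower in HFLF, where 25.4% of all genes were called (10.7% higher, 14.7% lower). The median over the members was -0.10 (0.00 over all genes). The members that fell were led by Il1rn, Il13ra2 and Il7r, and those that rose were Il17re, Il17rb and Il15ra.

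Il1rn was at 1.18, 3.61 and 7.82 CPM on HFLF, against 9.92, 26.3 and 109 CPM on HF (-3.39 ± 0.57, adjusted p = 0.00136), with no overlap. Il13ra2 was at 0.136, 0.267 and 0.582 CPM on HFLF, against 0.353, 2.43 and 5.41 CPM on HF (-3.10 ± 0.55, adjusted p = 0.00165). Il7r was at 5.89, 7.96 and 24.8 CPM on HFLF, against 9.72, 54.4 and 145 CPM on HF (-2.59 ± 0.53, adjusted p = 0.00305). The groups overlapped for Il13ra2 and Il7r, and HFLF library 2, with the highest macrophage sum on HFLF (3432 CPM), was highest for both. The entry of Il13ra2, and of Il1r2 below, could rest largely on HF, which favours a fall from HF.

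Il1r2 (-1.56 ± 0.36), Il10ra (-1.23 ± 0.27), Il27ra (-0.97 ± 0.26), Il1rl1 (-0.74 ± 0.21), Il10rb (-0.66 ± 0.16) and Il3ra (-0.63 ± 0.18) also fell, and Il3ra did not pass without HF library 3 (-0.50). Il17re rose (1.32 ± 0.40) but did not pass without HF library 3 or 4 (1.22 and 1.24). Il15ra (0.50 ± 0.16) and Il17rb (1.39 ± 0.49) rose too, and lost their calls in 4 and 10 of the 18 fits without 1 library, with HF libraries 3 and 4 and HFLF libraries 4 and 5 among those left out (0.39 to 0.47, and 0.97 to 1.48). Without the 6 libraries only 4 members were called, where 8.33% of all genes were: Il1rn (-3.35), Il13ra2 (-2.78), Il1r2 (-1.68) and Il20rb (-0.74). Il7r then missed the threshold (-2.34, adjusted p = 0.0606).

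**Figure D3:**
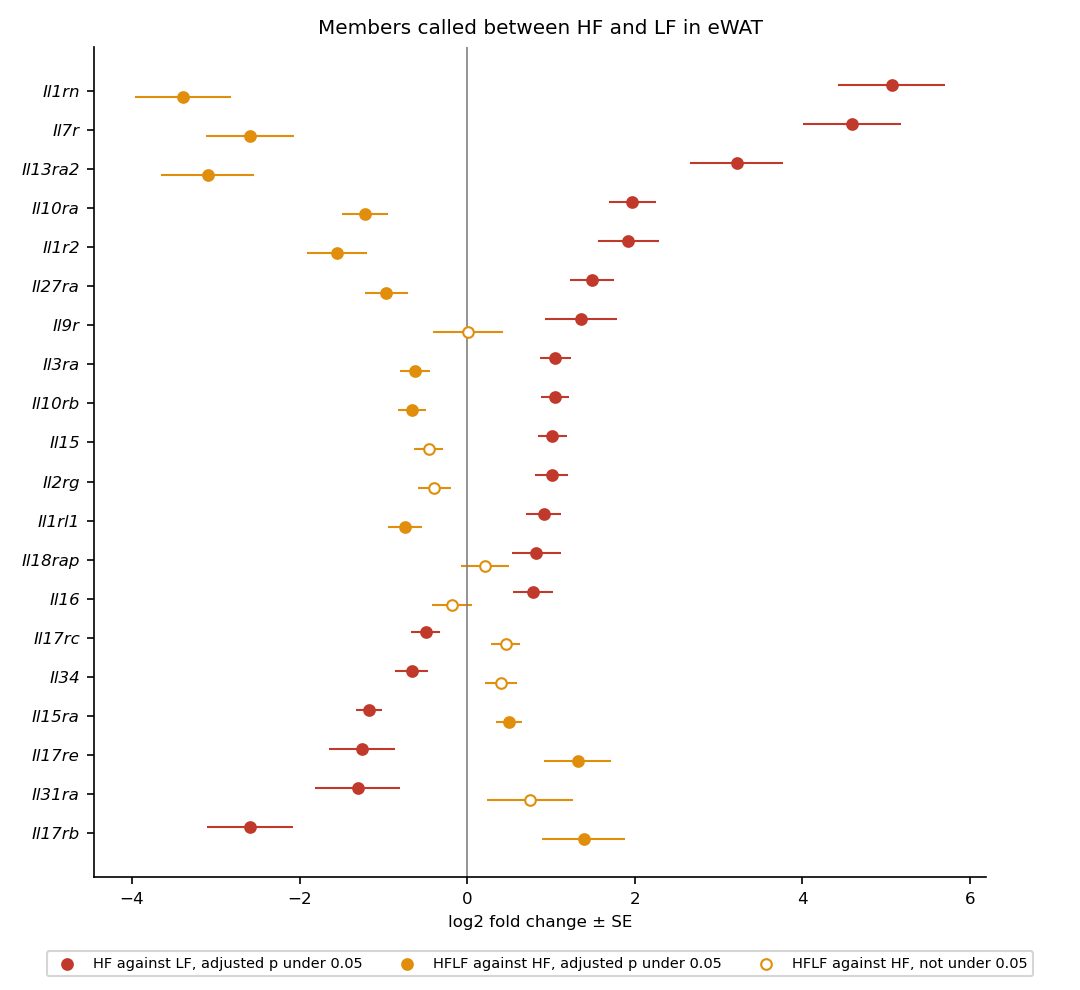
Log2 fold changes ± SE of the 20 members called between HF and LF in eWAT, for HF against LF (red) and HFLF against HF (orange), filled where the adjusted p was under 0.05. Il1rn stood at 5.07 in the first and -3.39 in the second, while Il9r, Il18rap and Il16 did not pass in the second. The 2 comparisons share the HF libraries.

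Between HFLF and LF in eWAT, edgeR called 0 of the 46 members, where 0.563% of all genes were called, while 15 members had an unadjusted p under 0.05. DESeq2 called 4 (4.27% of all genes) and limma voom called 1 (4.07% of all genes). Without the 6 libraries edgeR again called 0, where 0.0359% of all genes were called, with 6 members at an unadjusted p under 0.05. The 4 were Il7r (2.01, adjusted p = 0.00583), Il18rap (1.03, adjusted p = 0.0336), Il15 (0.54, adjusted p = 0.049) and Il15ra (-0.69, adjusted p = 0.00276), and voom called Il15ra (-0.73, adjusted p = 0.0103). A missed threshold does not show that levels had returned to those of LF.

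Il7r was at 5.89, 7.96 and 24.8 CPM on HFLF, against 1.69, 2.13 and 4.25 CPM on LF, with every HFLF library above every LF library (2.0 ± 0.55, edgeR adjusted p = 0.0897). Il15ra was at 21.9, 27.7 and 42.2 CPM on HFLF, against 37.6, 44.1 and 57.6 CPM on LF, and HFLF library 4 alone reached into the LF range (-0.68 ± 0.16, edgeR adjusted p = 0.0582). In fits without 1 library, edgeR called 1 member when LF library 5, HF library 3 or HFLF library 4 was left out. Il1rn was at 1.18, 3.61 and 7.82 CPM on HFLF, against 0.694, 0.852 and 2.06 CPM on LF (1.67 ± 0.59, adjusted p = 0.161), with overlap. Il13ra2 overlapped as well, at 0.136 to 0.582 CPM on HFLF, against 0.109 to 0.595 CPM on LF (0.12 ± 0.58).

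In liver the comparison of HF with LF gave fewer called members, and the LF libraries split. Il1rn, Il1r1 and Il1b of the IL-1 system, the receptor chains Il17ra, Il13ra1, Il22ra1 and Il6st, and Il11ra1 were lower on HF, and Il15 was higher. In all, 9 of 32 members (28.1%) were called, 1 higher and 8 lower, where 34.8% of all genes were called (16.3% higher, 18.5% lower). The median over the members was -0.08 (0.00 over all genes). Over all genes the split was 2295 higher and 2596 lower, and 2952 and 1869 with upper-quartile factors, which left the members' counts as they were. Without LF libraries 1 to 4, 1 member was called, where 2.11% of all genes were. The LF group then holds 2 libraries.

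Il1r1 was at 32.8, 50.2 and 93.9 CPM on HF, against 70.5, 201 and 379 CPM on LF (-2.08 ± 0.40, adjusted p = 0.00139). LF libraries 1 to 4 were at 145, 258, 379 and 336 CPM, while LF libraries 5 and 6 were at 74.3 and 70.5 CPM, within the HF range. Without the first 4 the change was -0.48 (adjusted p = 0.421). Il1rn was at 1.29, 3.83 and 6.18 CPM on HF, against 1.26, 15.4 and 32.02 CPM on LF (-2.10 ± 0.62, adjusted p = 0.0161). LF libraries 1 to 4 were at 12.9 to 32.02 CPM and LF libraries 5 and 6 at 1.33 and 1.26 CPM, at the lower end of the HF range or below it. The call was lost without LF library 2 (-1.69), and without LF libraries 1 to 4 the sign turned (1.45, adjusted p = 0.135).

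Il1b, at 0.705, 1.38 and 1.73 CPM on HF, against 0.638, 2.79 and 6.12 CPM on LF, changed likewise (-1.37 ± 0.40, adjusted p = 0.0143, and 0.13 without LF libraries 1 to 4). Il17ra was at 23.4, 24.9 and 30.6 CPM on HF, against 25.0, 46.1 and 56.8 CPM on LF, with LF libraries 1 to 4 above all HF libraries (-0.86 ± 0.17, adjusted p = 0.00147, and -0.12 without them). Il13ra1 fell (-0.87 ± 0.22, and -0.28 without them), as did Il22ra1, the hepatocyte receptor chain for IL-22 (-1.15 ± 0.36, and -0.25 without them), which did not pass without LF library 4 (-0.80). Il6st was at 126, 140 and 160 CPM on HF, against 154, 198 and 229 CPM on LF (-0.58 ± 0.10, adjusted p = 0.000582, and -0.25 without them, adjusted p = 0.18). The neutrophil list, with 2 of 8 genes measured, summed to 2.11 to 4.90 CPM on HF, against 8.904 to 17.8 CPM in LF libraries 1 to 4 and 3.83 and 1.64 CPM in LF libraries 5 and 6. The macrophage sums overlapped, at 158 to 298 CPM on HF, against 167 to 290 CPM on LF. What set LF libraries 1 to 4 apart was not tested.

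**Figure D4:**
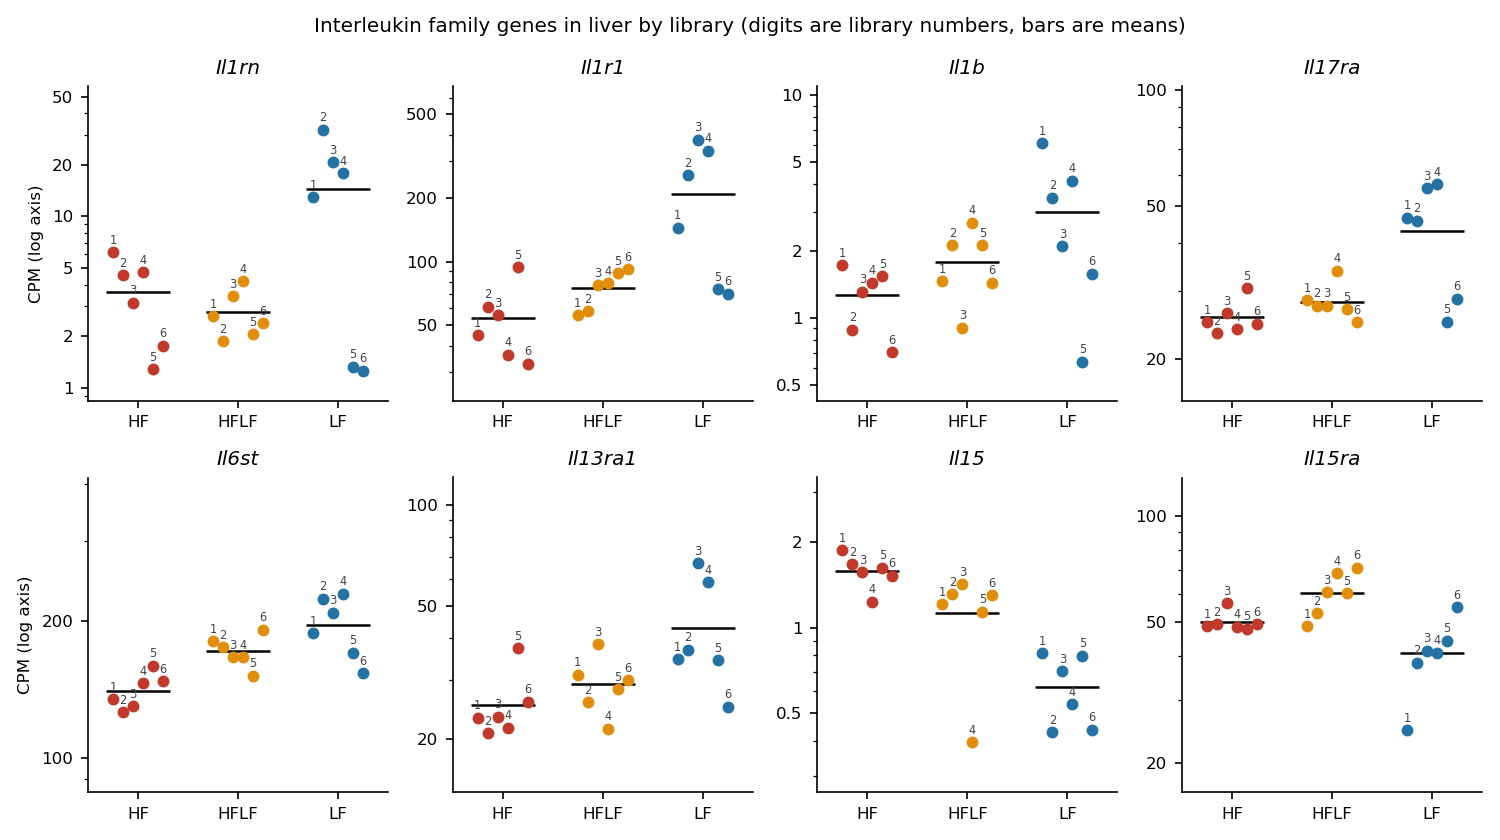
CPM of 8 members in liver on log axes, 1 point per library with its number, and the mean of 6 libraries as a bar, for HF (red), HFLF (orange) and LF (blue). For Il1rn, LF libraries 1 to 4 sat at 12.9 to 32.02 CPM and LF libraries 5 and 6 at 1.33 and 1.26 CPM, and Il1r1 and Il17ra had the same split.

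The changes of Il15 and Il11ra1 were as large without LF libraries 1 to 4. Il15 was at 1.24, 1.60 and 1.88 CPM on HF, against 0.429, 0.620 and 0.813 CPM on LF, with no overlap (1.25 ± 0.25, adjusted p = 0.00135). Without LF libraries 1 to 4 it was 1.30 and missed the threshold (adjusted p = 0.0832). Il11ra1, the IL-11 receptor alpha chain, was at 28.0, 29.0 and 30.7 CPM on HF, against 29.5, 35.2 and 40.4 CPM on LF (-0.37 ± 0.07, adjusted p = 0.000909), and was the 1 member called without LF libraries 1 to 4 (-0.37, adjusted p = 0.022). Il11ra2 is a near-identical copy of Il11ra1, so its reads are uncertain. Il15ra did not pass (0.20 ± 0.13), nor did Il6ra (-0.10 ± 0.22) or Il1rap (0.02 ± 0.14).

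HFLF livers differed from LF livers in 8 of 32 members, 2 higher and 6 lower, where 22.6% of all genes were called (10.2% higher, 12.4% lower). Upper-quartile factors gave 3 higher and 4 lower among the members, and 1866 higher and 1158 lower over all genes against 1432 and 1744. The median over the members was -0.12 (0.00 over all genes). The members lower on HFLF were Il1rn (-2.54 ± 0.65, adjusted p = 0.0118), Il1r1 (-1.62 ± 0.40), Il17ra (-0.74 ± 0.17), Il6ra (-0.69 ± 0.22), Il13ra1 (-0.68 ± 0.22) and Il6st (-0.31 ± 0.10), and those higher were Il15 (0.76 ± 0.25) and Il15ra (0.45 ± 0.13). Without LF libraries 1 to 4, 0 were called (4 at an unadjusted p under 0.05), where 0.185% of all genes were, and Il1rn (1.01), Il6st (0.02) and Il17ra (0.00) had the opposite sign.

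Il15ra was at 48.5, 60.5 and 71.2 CPM on HFLF, against 24.7, 41.2 and 55.1 CPM on LF (adjusted p = 0.0194, and 0.21 on the log2 scale without LF libraries 1 to 4). Il6ra was at 39.7, 71.3 and 96.9 CPM on HFLF, against 79.2, 99.6 and 136 CPM on LF, with overlap, and was -0.63 without LF libraries 1 to 4. It lost its call without any 1 of LF libraries 1, 2 and 4 or HFLF libraries 1, 3 and 4 (-0.70 to -0.56). Il13ra1 lost it without LF library 3 or 4 or any of HFLF libraries 1, 2, 4, 5 and 6 (-0.70 to -0.49), and Il6st without any of LF libraries 1 to 4 or HFLF libraries 3, 4 and 5 (-0.31 to -0.26). Il15 lost it without any of LF libraries 2, 4 and 6 or HFLF libraries 1, 2, 3, 5 and 6 (0.67 to 0.76).

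Between HFLF and HF livers, edgeR called 0 of 32 members, where 5.23% of all genes were called, with 5 at an unadjusted p under 0.05. DESeq2 called 0 (9.34% of all genes) and limma voom called 1 (12.5% of all genes), Il6st (0.28, adjusted p = 0.033). The 5 were Il11ra1 (0.19 ± 0.07), Il6st (0.27 ± 0.10), Il6ra (-0.59 ± 0.22), Il33 (-0.50 ± 0.24) and Il22ra1 (0.77 ± 0.36). Il11ra1 and Il6st were called when LF libraries 1 to 4, which enter this contrast only through the shared spread, were left out (0.19 and 0.28, adjusted p = 0.0418 and 0.0287, where 9.64% of all genes were called).

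The effect of HF against LF differed between eWAT and liver for 16 of the 30 shared members, 11 higher and 5 lower in eWAT, by an interaction in 1 fit over both tissues, where 45.6% of all shared genes were called (21% higher, 24.6% lower). The median over the members was 0.36 (-0.04 over all genes). With upper-quartile factors it was 0.28, and the median of all genes was -0.12. Il1rn differed most, rising in eWAT and falling in liver (7.12 ± 0.91, adjusted p = 9.5e-07). It still differed without liver LF libraries 1 to 4 (3.61, adjusted p = 0.00614), where its liver change was 1.45.

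Il1r1 (1.61 ± 0.44), Il17ra (0.92 ± 0.22), Il13ra1 (1.02 ± 0.38), Il6st (0.59 ± 0.13), Il10ra (1.59 ± 0.33), Il3ra (1.19 ± 0.22), Il27ra (1.15 ± 0.36), Il2rg (1.03 ± 0.27), Il10rb (1.02 ± 0.23) and Il11ra1 (0.40 ± 0.13) were the others higher in eWAT. Lower were Il17rb (-2.54 ± 0.52), Il17re (-1.63 ± 0.59), Il15ra (-1.42 ± 0.21), Il34 (-0.74 ± 0.31) and Il17rc (-0.56 ± 0.19). Without liver LF libraries 1 to 4, 6 passed, where 22.9% of all genes did: Il1rn, Il10ra (1.39), Il3ra (1.26), Il11ra1 (0.43), Il15ra (-1.17) and Il17rb (-2.64). Il1r1 was then at 0.03, Il17ra at 0.21, Il13ra1 at 0.46, Il6st at 0.29 and Il17re at -0.89. Without the 6 eWAT libraries, where 39.4% of all genes passed, Il17rb was at -1.15 (adjusted p = 0.00716), Il13ra1 at 1.77 (adjusted p = 0.000414) and Il34 at -0.19 (adjusted p = 0.661). Of the called differences, that of Il17re was lost without liver HF library 3 (-1.43), that of Il13ra1 without liver LF library 3 or 4, eWAT LF library 6 or eWAT HF library 3 (0.83 to 0.91), and that of Il34 in 26 of 36 fits without 1 library (-0.76 to -0.58).

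**Figure D5:**
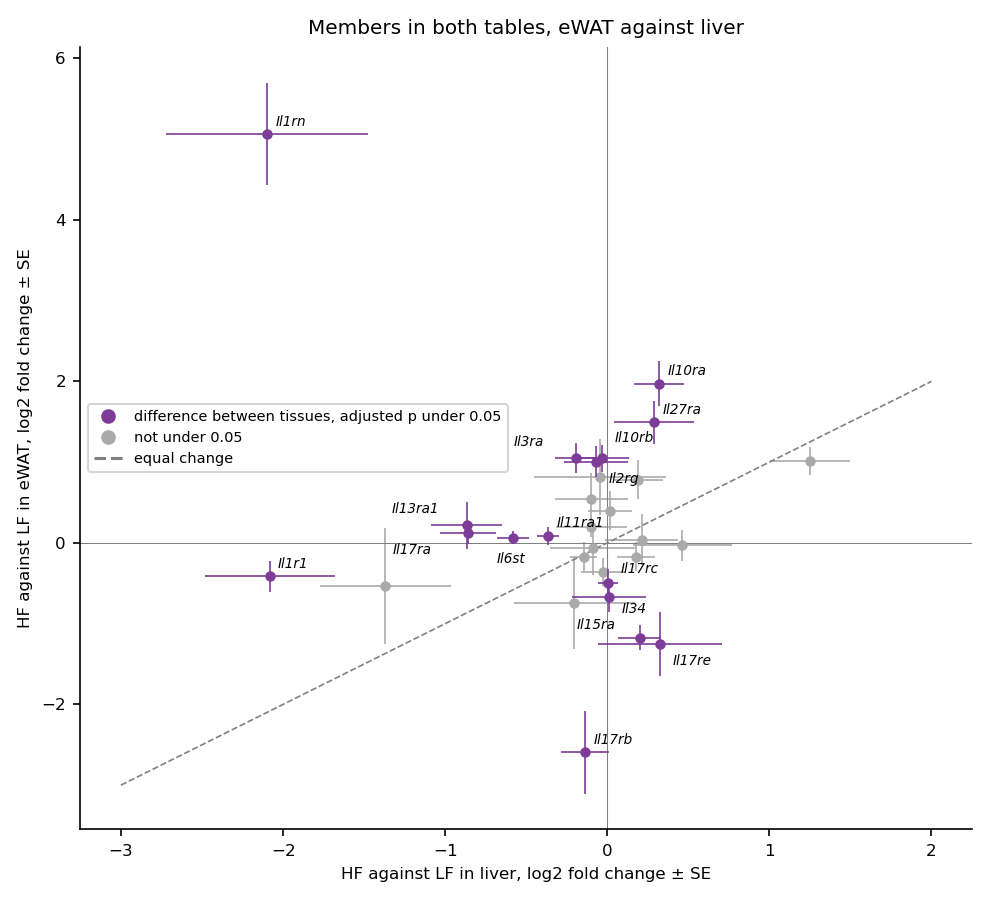
Log2 fold changes ± SE of HF against LF for the 30 members in both tables, with eWAT on the vertical and liver on the horizontal axis, and the line of equal change dashed. Members whose difference between tissues had an adjusted p under 0.05 are purple. Il1rn sat at 5.07 in eWAT and -2.10 in liver, and Il15 lay near the line at 1.02 and 1.25.

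For HFLF against HF, 5 of the 30 members differed between the tissues, 1 higher and 4 lower in eWAT, where 18.0% of all shared genes did (8.78% higher, 9.18% lower). They were Il10ra (-1.20 ± 0.33), Il1rn (-2.94 ± 0.86), Il10rb (-0.72 ± 0.23), Il3ra (-0.64 ± 0.23) and Il17re (1.85 ± 0.60). Il10ra alone kept its call in every fit without 1 library. Il1rn lost it without eWAT HF library 3 (-2.32), Il10rb without liver HF library 3, liver HFLF library 1, eWAT HF libraries 3 or 4 or eWAT HFLF library 5 (-0.68 to -0.56), and Il17re without liver HF libraries 2 or 3 or eWAT HF libraries 3 or 4 (1.65 to 1.8). Il3ra lost it in 25 of 36 such fits (-0.66 to -0.51). Without liver LF libraries 1 to 4, 4 members passed, where 20.6% of all genes did. Without the 6 eWAT libraries, where 13% did, Il10ra (-1.16) and Il6st (-0.45) were called, and Il1rn was not (-2.90, adjusted p = 0.053).

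Genes that act downstream of or beside these receptors were read from a list of 70 signalling genes (JAK, STAT and SOCS proteins, the MyD88 to NF-kB route, the inflammasome and partner chains). In eWAT, 28 of 69 measured were called between HF and LF, 22 higher and 6 lower, with a median of 0.19. Of all genes 40.8% were called (20.6% higher, 20.2% lower), so the share called lay near that of all genes. Jak1, a kinase of gamma chain and gp130 receptors (0.49 ± 0.07), Stat6, the factor of IL-4 and IL-13 (0.56 ± 0.09), Tyk2, another JAK kinase (0.65 ± 0.11), and Casp1, which matures IL-1 beta and IL-18 (1.74 ± 0.28), had the smallest p. Between HFLF and HF in eWAT, 24 were called, 3 higher and 21 lower (median -0.23), where 25.4% of all genes were called (10.7% higher, 14.7% lower). The count was 4 without the 6 libraries (8.33% of all genes), and 14 to 33 without 1 library at a time, with 14 without HF library 4 and 15 without HFLF library 6. Pycard, the inflammasome adaptor (-1.65 ± 0.29), Nfkb2, an NF-kB subunit (-0.79 ± 0.15), and Crlf2, the TSLP receptor chain that pairs with Il7r (-0.85 ± 0.18), fell, and Tab3, a partner of the kinase TAK1, rose (0.93 ± 0.18). Crlf2 had risen on HF against LF (1.01 ± 0.18, adjusted p = 0.000361). Between HFLF and LF in eWAT 0 were called by edgeR, 4 by DESeq2 and 5 by limma voom, where 0.563%, 4.27% and 4.07% of all genes were.

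In liver, 33 of 64 measured signalling genes were called between HF and LF, 2 higher and 31 lower (median -0.36), where 34.8% of all genes were called (16.3% higher, 18.5% lower). Between HFLF and LF 24 were called, 1 higher and 23 lower (median -0.26), where 22.6% of all genes were (10.2% higher, 12.4% lower). Crlf2 (-0.97 ± 0.15), Rela, an NF-kB subunit (-0.74 ± 0.13), Stat6 (-0.44 ± 0.08) and Ikbkg, the NEMO subunit of the IKK complex (-0.35 ± 0.06), had the smallest p in the first, and Ikbkg (-0.43 ± 0.06), Rela (-0.68 ± 0.13), Nfkb2 (-2.16 ± 0.40) and Nfkbiz, a nuclear co-factor of NF-kB (-2.15 ± 0.42), in the second. Without LF libraries 1 to 4 these counts were 1 (2.11% of all genes) and 0 (0.185% of all genes). Of 20 acute-phase genes, targets of IL-6 and STAT3, 20 were lower both on HF and on HFLF against LF (medians -1.30 and -1.57), where 18.5% and 12.4% of all genes were lower. This goes with the acute-phase sums in LF libraries 1 to 4 given above. Between HFLF and HF, 0 of the acute-phase genes and 1 signalling gene, Stat6 (0.27 ± 0.08), were called, where 5.23% of all genes were. Stat6 lost its call in 15 of the 18 fits without 1 library.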

How the data were processed

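Total RNA of liver and eWAT was isolated with TRI reagent and read on a NovaSeq, per the labels. STAR and the GRCm38.p6 genome are named in the submitters' processing notes; the sources used here give no counting tool, strand or annotation release. The authors deposited raw counts per gene for each tissue, which were used as they were. Tested on the tables, each gene had over 0.5 CPM in at least 6 of 18 libraries. Tables named RPKM were not used. All 36 libraries were used and 0 columns were left unmapped.

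Symbols, positions and exon lengths came from GENCODE M21, which held 14034 of 14052 liver and 16668 of 16690 eWAT genes by ID without version. CPM divide counts by the library total. For each tissue, 1 edgeR 4.0.16 model (R 4.3.3; TMM, robust quasi-likelihood) with the 3 diets and no covariate was fitted over all genes, with Benjamini-Hochberg adjustment over all genes at 0.05. Tissue differences came from 1 fit over the 13206 shared genes. The code was tested on simulated data. No libraries were near copies.

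The members and gene lists were chosen with earlier results of these data known. Named were every called member (at most 12 between the tissues), a fixed set of common members, and up to 4 list genes with the smallest p. The alternatives were other size factors, DESeq2 1.42.0, limma 3.58.1 voom, filters on low counts, fits of only the groups compared, a fit without robust estimation, the replicate number as a block, and leaving out libraries.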

Additional observations from a re-analysis of the deposited data

Results flagged for a closer look

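In 18 of 183 groups of 6 libraries, 1 library lay far from the others by a gap test that flags about 1 group in 20 by chance. The causes were not tested. In eWAT HFLF library 4, Il17rb (7.07 CPM), Il1b (2.13 CPM), Il31ra (1.29 CPM) and Il4ra (97.1 CPM) were high and Il17rc (39.6 CPM) was low; this library had the highest epithelial sum on HFLF (111 CPM). HFLF library 2 of eWAT was high for Il7r (24.8 CPM) and Il3ra (45.6 CPM) and had the highest macrophage sum on HFLF (3432 CPM). HFLF library 3 of eWAT was low for Il18 (3.29 CPM) and Il33 (4.00 CPM). LF library 4 of eWAT was low for Il17rc (38.7 CPM), and HF library 4 was high for Il6st (318 CPM).

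In liver, HF library 5 was high for Il13ra1 (37.3 CPM), Il22ra1 (5.06 CPM) and Il17rc (42.4 CPM), and it had the highest acute-phase sum on HF (29125 CPM). HF library 3 was high for Il15ra (56.6 CPM), HFLF library 3 for Il17rc (44.4 CPM) and LF library 5 for Il18 (8.87 CPM). HFLF library 4 was low for Il15 (0.394 CPM, 5 counts).

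The tissues differed in the effect of HF against LF (eWAT minus liver, log2) for Il1rn (7.12), Il1r1 (1.61), Il10ra (1.59), Il3ra (1.19), Il27ra (1.15), Il2rg (1.03), Il10rb (1.02), Il13ra1 (1.02), Il17ra (0.92), Il6st (0.59), Il11ra1 (0.40), Il17rc (-0.56), Il34 (-0.74), Il15ra (-1.42), Il17re (-1.63) and Il17rb (-2.54). In HFLF against HF they differed for Il17re (1.85), Il3ra (-0.64), Il10rb (-0.72), Il10ra (-1.20) and Il1rn (-2.94). Each passed an interaction test over all shared genes with all libraries. Without liver LF libraries 1 to 4, 6 of those in HF against LF still passed, where 22.9% of all genes did. Of those in HFLF against HF, 4 did, where 20.6% of all genes did. Il34 in the first and Il3ra in the second lost their calls in 26 and 25 of 36 fits without 1 library.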

How the results depend on the processing

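Over 105 pairs of a named gene and a comparison, 3493 values under other settings gave 3240 with the same direction and side of the threshold, 243 weaker, 1 stronger and 9 of opposite sign. Weaker means that a call was lost and stronger that one was gained, whatever the size of the change. Most of these values came from fits without 1 library. In the liver fits without LF libraries 1 to 4, 2 values were the same, 19 weaker and 5 of opposite sign. Without liver LF libraries 1 to 4 the count for HF against LF was 1 and for HFLF against LF 0, Il1b (0.13) and Il1rn (1.45) turned in the first and Il1rn (1.01), Il6st (0.022) and Il17ra (0.0044) in the second, HFLF against HF gave 2, and the tissue difference in HF against LF gave 6. Fits of only the groups compared gave 4 for HFLF against LF and 1 for HFLF against HF in liver. Their shares over all genes are not given here. In liver, voom gave 1 for HFLF against HF, and for HFLF against LF in eWAT DESeq2 gave 4 and voom 1. Without the 6 eWAT libraries, HFLF against HF gave 4 and its tissue difference 2, and voom gave 1 for that difference.

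Leaving out 1 library at a time gave 8 to 10, 5 to 9 and 0 called in liver, and 17 to 20, 0 to 1 and 8 to 15 in eWAT, for the contrasts in the order HF with LF, HFLF with LF and HFLF with HF, 28 to 30 between the tissues, and 14 to 16 and 1 to 8 for the tissue differences. The shares over all genes in these fits are not given here, so the counts show only how far the calls moved. The lowest values for HFLF against LF in liver came without LF library 2 or 4 or HFLF library 1. The lowest for the tissue difference in HFLF against HF (1) came without eWAT HF library 3 and the highest (8) without eWAT HF library 6. Il13ra2 in eWAT on HFLF against LF was -0.092 to 0.45 over such fits, around 0.12.

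The replicate numbers were not taken as pairs, since correlations of same-numbered libraries ran from -0.61 to 0.57 between diets, and a library matched its own number best in 0 to 2 of 6 cases. Between eWAT and liver the correlations were 0.043 to 0.155 on LF, -0.035 to 0.125 on HF and 0.012 to 0.106 on HFLF, with 5, 3 and 3 of 6 libraries closest to their own number. That is a hint from the data that numbers may link the tissues, strongest on LF. The labels do not say so, and not every pair was over 0.1. The main tissue comparisons treated the libraries of both tissues as independent, so their p-values would not allow for such a link. With the replicate block, 9, 7 and 0 members were called in liver, where 4758, 3020 and 444 of all 14052 genes were. In eWAT the block gave 20, 0 and 11 members, where 6394, 15 and 4002 of all 16690 genes were called. Il13ra2 on HFLF against LF in eWAT was -0.034 with the block. Voom with the block gave 29, 15 and 1 for the tissue comparisons, and its shares over all genes are not given here. Members near the floor of 0.5 CPM, such as Il13ra2, Il31ra, Il5ra and Il22ra2, had counts from 0 to 2 in their lowest libraries, which limits their precision.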
